A study of Mus musculus with 3 samples.

Results

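The genome-wide difference between induced astrocytes (iAs) and mouse embryonic fibroblasts (MEFs) was read from 1 array of each, as the log2 level in iAs minus the log2 level in MEFs. A gene was included when at least 1 probe set carried its symbol and no other, and several probe sets of a gene were averaged, which left 22180 named genes from 23521 of the 41345 probe sets. The study asked whether small molecules alone can turn fibroblasts into astrocytes. The iAs were MEFs from E13.5 embryos that carry GFP under the GFAP promoter, kept for 25 days in VCSTO, which is valproic acid (a histone deacetylase inhibitor), CHIR99021 (an inhibitor of GSK3), SB-431542 (an inhibitor of the TGFβ type 1 receptor), tranylcypromine (an inhibitor of the histone demethylase LSD1) and OAC1, and then sorted for GFP. The MEF array, labelled with the same embryonic age, served as the fibroblast side. The study does not state whether the MEFs on that array carried the reporter. Set beside the results is 1 array of primary astrocytes (pAs) from P2 mouse cortex, to show which changes an astrocyte culture from brain shared.

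Each side of the comparison has limits as a model. GEO's labels repeat the VCSTO treatment on all 3 samples, while the study's methods treat the iAs only, and the assignment used here follows the methods. The induction medium held serum replacer, fetal bovine serum and FGF, the cells were moved to Matrigel during the induction, and the iAs alone were sorted, so compounds, medium, substrate and sort cannot be told apart. The GFAP reporter also selected the iAs, which makes a raised Gfap level part of how they were obtained. Sex-linked genes set the arrays apart. Xist, the RNA that coats the inactive X chromosome of female cells, stood at log2 levels of 6.64 for iAs, 11.79 for MEFs and 11.45 for pAs. The Y-linked Eif2s3y had log2 levels of 9.94 for iAs, 5.51 for MEFs and 8.54 for pAs, and Uty and Kdm5d, also on the Y, were at least 5.5-fold higher and at least 2.88-fold higher in the iA array. The iA array thus carried Y-linked RNA and little Xist while the MEF array showed the reverse, and the pA array carried both. The sex make-up of the arrays therefore differed, and it cannot be told apart from the treatment.

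The values are log2 expression levels after RMA, an array normalization that makes the spread of values nearly the same on every array, and they are relative. Their medians over all probe sets were 6.59 for iAs, 6.57 for pAs and 6.53 for MEFs. A gene is called higher or lower here when it differed by at least 1.5-fold, which is 0.585 on the log2 scale and is the threshold of the study's methods. Where the lower of the levels lay below its array's median, the printed fold was counted from that median and is written as "at least", while all counts use the values as deposited. There was 1 array per cell type and no replicate, so no difference carries an error or a test, and none of the counts below shows how another culture would behave. Levels were compared for 1 gene across arrays and never between genes. The comparisons of iAs with MEFs and of pAs with MEFs share the MEF array, so they are given side by side.

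MEFs are a mixed mesenchymal culture that makes fibrillar collagen, proteoglycans and contractile proteins. Astrocytes are the glia of the central nervous system that clear glutamate, buffer potassium and move water. Neural crest cells give rise to the glia and neurons of the peripheral nervous system, including Schwann cells, which ensheath peripheral axons, and the enteric neurons of the gut wall. Markers of these cell types, and of those that a sorted embryonic culture could also hold, were chosen with earlier results of these data known, so their counts are a description. Among 8 fibroblast markers, iAs had 6 lower and 1 higher against MEFs, while pAs had 7 lower and 0 higher. All 8 reached the median of the iA array, 7 that of the pA array and 8 that of the MEF array. Reaching the median therefore hardly separated the arrays. Of 8 astrocyte markers, 3 were higher in iAs and 4 lower, against 7 higher and 0 lower in pAs. All 3 measured Schwann cell markers and 4 of 6 measured markers of enteric or autonomic neurons were higher in iAs, against 0 higher in pAs for either set. The astrocyte markers went both ways in iAs, and the cells are called iAs after their label throughout.

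In iAs, 1960 named genes were higher than in MEFs (8.84%) and 2222 were lower (10.0%). In pAs, 2661 were higher than in MEFs (12.0%) and 2449 lower (11.0%). The median difference over all named genes was 0.00 in both, and 6625 genes (29.9%) had the same value to the last deposited digit in iAs and MEFs. Of the 1960 genes higher in iAs, 928 were also higher in pAs, 792 lay within 1.5-fold of MEFs there and 240 were lower. Of the 2222 genes lower in iAs, 1375 were lower in pAs, 679 lay within 1.5-fold and 168 were higher. In all, 975 genes (4.40%) were higher in iAs than in both other arrays and 687 (3.10%) lower than in both. The calls rest partly on dim probe sets, since both levels lay below their arrays' medians for 140 of the genes called higher and 96 of those called lower. Taking all 41345 probe sets in place of named genes turned the balance, with 57.5% of the calls higher in place of 46.9%.

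**Figure D1:**
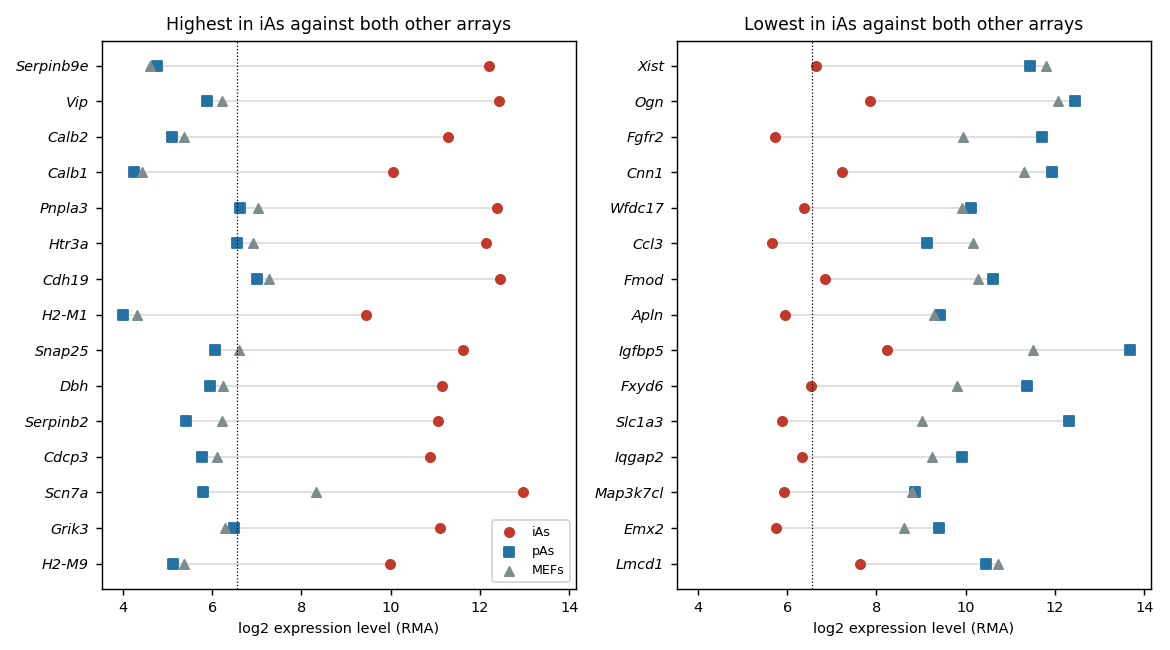
The 15 named genes highest and the 15 lowest in iAs against the nearer of the other arrays. For the highest, the iA level had to reach its array's median, and for the lowest, the lower of the MEF and pA levels. Each point is the log2 level on 1 array and the dotted line is the mean of the 3 array medians; Serpinb9e stood at 12.19 in iAs and below 5 on both other arrays, and Ogn at 7.86 in iAs and above 12 on both.

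The genes with the widest gap above both other arrays came from several families. Pnpla3, a lipid droplet protein with lipase and acyltransferase activity, had log2 levels of 12.38 for iAs, 7.04 for MEFs and 6.63 for pAs, 40.7-fold higher in iAs. Akr1c18, a hydroxysteroid dehydrogenase that breaks down progesterone, was 23.1-fold higher, at log2 levels of 11.70 for iAs, 7.17 for MEFs and 6.89 for pAs. Pirt, a membrane protein of peripheral sensory neurons that regulates TRPV1, was at least 20.7-fold higher, and Clca3a2, of a family of secreted proteins that modulate chloride conductance, was at least 12.3-fold higher. In pAs these 4 genes lay within 1.5-fold of MEFs. Plekhb1, a membrane-associated protein of photoreceptors and glia, was high in both iAs and pAs, at log2 levels of 12.21 for iAs, 7.17 for MEFs and 12.18 for pAs, and so 32.7-fold above MEFs in iAs and 32.1-fold above them in pAs.

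Astrocyte genes separated the iAs from the pAs. Of 35 measured genes of astrocytes, 7 were higher in iAs than in MEFs (20%) and 10 lower (28.6%), with a median log2 difference of 0.00, and 28 were higher in pAs (80%) with 0 lower and a median of 2.27. Gfap, the intermediate filament whose promoter drives the reporter, was 15.1-fold higher in iAs, at log2 levels of 11.72 for iAs, 7.80 for MEFs and 13.26 for pAs. S100b, a calcium-binding protein of astrocytes that Schwann cells also make, was at least 13.7-fold higher, at log2 levels of 10.31 for iAs, 6.40 for MEFs and 7.61 for pAs, and was the member above both other arrays. Atp1b2, a subunit of the sodium pump that astrocytes carry as an adhesion molecule, was 9.0-fold above MEFs in iAs and 25.9-fold above them in pAs. The lipid carrier gene Clu was 2.27-fold above MEFs in iAs and 7.17-fold above them in pAs. These 4 members were higher in iAs and pAs alike, and of them S100b was the one whose iA level exceeded the pA level.

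The transporters and channels by which astrocytes are known did not follow. Slc1a3, the glutamate transporter GLAST, had log2 levels of 5.88 for iAs, 9.02 for MEFs and 12.32 for pAs, so it was at least 5.39-fold below MEFs in iAs and 9.84-fold above them in pAs. Aqp4, the water channel of astrocyte endfeet, stood at log2 levels of 5.82 for iAs, 6.80 for MEFs and 12.20 for pAs, and Aldh1l1, a folate enzyme used as an astrocyte marker, at 7.58 for iAs, 8.58 for MEFs and 11.42 for pAs. Both were on the lower side of MEFs in iAs, with log2 differences of -0.98 and -0.99. The glutamate transporter gene Slc1a2 had the same log2 level in iAs and MEFs, 5.96, below the median of either array, and 8.57 in pAs. Kcnj10, the inward rectifier potassium channel of astrocytes, lay within 1.5-fold of MEFs in iAs, at log2 levels of 7.14 for iAs, 7.46 for MEFs and 13.48 for pAs, as did Mlc1 and Hepacam, membrane proteins of astrocyte endfeet, and the zinc transporter gene Slc39a12, whose log2 differences were -0.14, 0.48 and -0.03 in iAs, against 6.12, 5.90 and 5.55 in pAs. Of the transcriptional regulators on the astrocyte list, Sox9, Nfib, Nfix, Id4 and Gli3 were lower in iAs than in MEFs, while Nfia and Id3 lay within 1.5-fold. Sox9, a factor of gliogenesis, was 2.41-fold below MEFs in iAs and 4.84-fold above them in pAs, at log2 levels of 9.06 for iAs, 10.33 for MEFs and 12.60 for pAs, and Nfib was 2.28-fold lower in iAs, at 10.18 for iAs, 11.37 for MEFs and 11.99 for pAs. Sox6, a factor of glial and cartilage precursors that is not on that list, was 6.21-fold above MEFs in iAs and 10.4-fold above them in pAs. In a culture measured in bulk, fewer cells of a type and less RNA per cell cannot be told apart.

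Many genes of Schwann cells and the neural crest were gained. Of 26 measured, 14 were higher in iAs (53.8%) and 1 lower, with a median log2 difference of 0.82, against 2 higher and 11 lower in pAs with a median of -0.29, and 11 of them lay above both other arrays. Cdh19, a cadherin of Schwann cell precursors, had log2 levels of 12.45 for iAs, 7.26 for MEFs and 7.0 for pAs, 36.4-fold higher in iAs. Gldn, gliomedin, which Schwann cell processes use to gather sodium channels at the node of Ranvier, was 18.9-fold higher, and Mal, a myelin membrane protein, had log2 levels of 11.09 for iAs, 7.33 for MEFs and 7.78 for pAs. Sox10, the transcription factor that crest-derived glia depend on, was 12.2-fold higher, at log2 levels of 11.53 for iAs, 7.91 for MEFs and 7.18 for pAs. Erbb3, the neuregulin receptor subunit of Schwann cells, and Foxd3, a neural crest transcription factor, were 8.58-fold higher and 4.66-fold higher, and the neurotrophin receptor gene Ngfr was 9.42-fold higher. In pAs, Gldn, Sox10, Erbb3, Foxd3 and Ngfr were lower than in MEFs. Egr2, the transcription factor of myelinating Schwann cells, went the other way, at log2 levels of 7.71 for iAs, 9.01 for MEFs and 7.35 for pAs, 2.46-fold lower in iAs. The pigment cell genes Pmel, Dct, Mitf and Tyrp1 lay within 1.5-fold, with log2 differences of 0.00, -0.20, 0.00 and 0.03.

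The list with the largest share gained of the 71 described was that of enteric and autonomic neurons. Of 26 measured genes, 19 were higher in iAs (73.1%) and 0 lower, with a median log2 difference of 1.94, against 2 higher, 6 lower and a median of -0.28 in pAs. Above both other arrays lay 17. Htr3a, the ion channel that serotonin opens, had log2 levels of 12.13 for iAs, 6.91 for MEFs and 6.55 for pAs, 37.3-fold higher in iAs. Dbh, the enzyme that makes noradrenaline from dopamine, was at least 24.6-fold higher, at log2 levels of 11.16 for iAs, 6.24 for MEFs and 5.95 for pAs. Ret, the GDNF receptor kinase on which the enteric nervous system depends, was 19.9-fold higher, at 12.06 for iAs, 7.75 for MEFs and 6.76 for pAs. Nos1, neuronal nitric oxide synthase, was 15.5-fold higher, and the choline transporter gene Slc5a7 10.4-fold higher. Chrna3 and Chrnb4, subunits of the nicotinic receptor of autonomic ganglia, were at least 18.2-fold higher and 5.42-fold higher, and both lay within 1.5-fold of MEFs in pAs. Other members of the transmitter pathways lay within 1.5-fold. Th and Chat, which make catecholamines and acetylcholine, had log2 differences of 0.05 and 0.00, and the vesicle transporter genes Slc18a2 and Slc18a3 had 0.21 and 0.42. Isl1, a transcription factor of sensory and autonomic neurons, had -0.05.

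**Figure D2:**
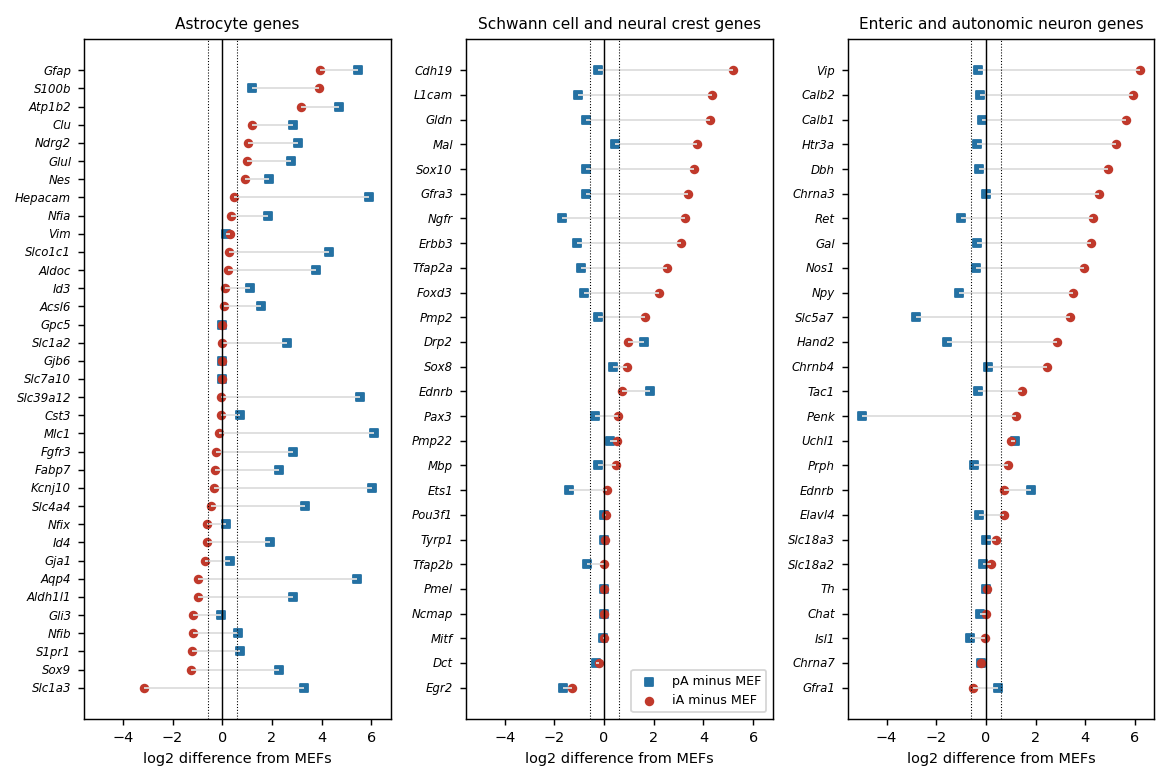
Every measured member of the astrocyte, Schwann cell and neural crest, and enteric and autonomic neuron lists, ordered by the log2 difference of iAs from MEFs (circles), with that of pAs from MEFs (squares). Dotted lines mark 1.5-fold on either side; 28 of 35 astrocyte genes lay above the upper line in pAs and 7 in iAs, and 19 of 26 enteric genes lay above it in iAs and 2 in pAs.

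Many genes of neuronal membranes and regulated secretion were higher as well, though the pan-neuronal markers were not uniformly so. Of 35 general neuron genes 16 were higher in iAs (45.7%) and 0 lower, against 8 and 5 in pAs. Nrcam and L1cam, adhesion molecules of the L1 family, were 29.3-fold higher and 20.3-fold higher in iAs; Nrcam was also 8.46-fold higher in pAs, and L1cam was 2.06-fold lower there. Chl1, another member of that family, stood at log2 levels of 13.01 for iAs, 8.34 for MEFs and 10.54 for pAs. Nefl, the light neurofilament, was at least 4.03-fold higher, at log2 levels of 8.54 for iAs, 6.05 for MEFs and 6.13 for pAs. Tubb3, the neuronal tubulin, lay within 1.5-fold at log2 levels of 9.19 for iAs, 9.02 for MEFs and 7.12 for pAs, and so did Rbfox3, which encodes the nuclear marker NeuN, at 7.74 for iAs, 7.78 for MEFs and 7.63 for pAs. Of 58 genes of synaptic vesicles and membrane fusion, 23 were higher in iAs (39.7%) and 3 lower, against 20 and 3 in pAs. Snap25, the SNARE protein of the plasma membrane at synapses, had log2 levels of 11.62 for iAs, 6.60 for MEFs and 6.05 for pAs, and its vesicle partner gene Vamp1 was 16.3-fold higher. Syn2, a synapsin that tethers vesicles, was 14.3-fold above MEFs in iAs and 4.46-fold above them in pAs. Sytl2, a Rab27 effector, was 2.85-fold below MEFs in iAs and 5.8-fold above them in pAs.

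Peptide genes were gained more often than lost. Among 42 granins, prohormones and convertases 20 were higher in iAs (47.6%) and 3 lower, with 16 above both other arrays, against 8 higher and 6 lower in pAs. Vip, the peptide of enteric secretomotor neurons, stood at log2 levels of 12.43 for iAs, 6.21 for MEFs and 5.87 for pAs. Gal and Npy, the precursors of galanin and neuropeptide Y, were 18.7-fold higher and 11.2-fold higher in iAs, and Npy was 2.13-fold lower in pAs. Scg3, a granin of secretory granules, was at least 4.35-fold above MEFs in iAs and at least 36.8-fold above them in pAs. Adm, the precursor of adrenomedullin, was 5.47-fold lower, at log2 levels of 7.07 for iAs, 9.52 for MEFs and 9.56 for pAs. Of 24 kinesins of axonal and vesicle transport 9 were higher in iAs and 2 lower, against 9 and 2 in pAs, among them Kif5c, a heavy chain of conventional kinesin in neurons, 3.74-fold above MEFs in iAs and 3.92-fold above them in pAs.

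Ion channels and receptors changed gene by gene. Of 62 potassium channel genes 12 were higher in iAs (19.4%) and 6 lower (9.68%), and in pAs 13 and 7. Kcna2, a voltage-gated channel of axons, was 12.4-fold higher, at log2 levels of 10.69 for iAs, 7.06 for MEFs and 7.60 for pAs, and Kcnq3, which forms the M current, at least 4.88-fold higher. Kcnk1, a leak channel of astrocytes, was 1.87-fold below MEFs in iAs and 9.82-fold above them in pAs. Of 34 sodium and calcium channel genes 9 were higher and 4 lower in iAs, against 8 and 6 in pAs. Scn7a, the sodium-sensing channel Nax of peripheral glia and salt-sensing brain regions, was 24.7-fold higher, at log2 levels of 12.95 for iAs, 8.33 for MEFs and 5.79 for pAs, and was at least 3.39-fold lower in pAs. Cacna1c and Cacna1g, pore subunits of L-type and T-type calcium channels, were 4.09-fold lower and at least 4.15-fold lower. Of 49 transmitter receptors 11 were higher and 5 lower in iAs, against 10 and 2 in pAs. Grik3, a kainate receptor subunit, had log2 levels of 11.10 for iAs, 6.28 for MEFs and 6.48 for pAs. Gabrb1, a subunit of the GABA-A receptor that astrocytes express, was at least 1.88-fold below MEFs in iAs and 10.3-fold above them in pAs. Of 18 connexins and pannexins 2 were higher in iAs and 3 lower, with the other 13 within 1.5-fold, and in pAs 0 were higher and 4 lower. Gjc3, a connexin of myelinating glia, was 10.7-fold higher, at log2 levels of 10.12 for iAs, 6.70 for MEFs and 5.62 for pAs, while Gja1, the main astrocyte connexin, was 1.6-fold lower and Gjb2 9.75-fold lower. The other gained member was the pannexin gene Panx1, with a log2 difference of 0.71.

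EF-hand proteins bind calcium through a helix-loop-helix motif, and 10 of 38 were higher in iAs (26.3%) and 2 lower, against 6 and 7 in pAs. Calb2, calretinin, stood at log2 levels of 11.28 for iAs, 5.36 for MEFs and 5.10 for pAs, and Calb1, calbindin, at 10.06 for iAs, 4.42 for MEFs and 4.24 for pAs. Scgn, secretagogin of neuroendocrine cells, was at least 6.0-fold higher, at 9.12 for iAs, 5.92 for MEFs and 6.09 for pAs. All 3 are known from subsets of neurons, and all 3 lay within 1.5-fold of MEFs in pAs. Vsnl1, a neuronal calcium sensor, was 1.9-fold lower, at log2 levels of 6.80 for iAs, 7.73 for MEFs and 6.20 for pAs.

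Clade B serpins are intracellular protease inhibitors that lie in gene clusters on mouse chromosomes 1 and 13. Of 25 measured, 8 were higher in iAs (32%) and 3 lower, with 8 above both other arrays, against 0 higher and 5 lower in pAs. In the order of the measured genes on chromosome 13, the 3 neighbours Serpinb9e, Serpinb9f and Serpinb9g were all gained. Serpinb9e had log2 levels of 12.19 for iAs, 4.60 for MEFs and 4.77 for pAs, Serpinb9f 9.43 for iAs, 5.93 for MEFs and 5.85 for pAs and Serpinb9g 6.78 for iAs, 4.17 for MEFs and 3.90 for pAs. Counted from the array medians, the differences were at least 50.5-fold higher, at least 7.44-fold higher and at least 1.19-fold higher, so the last rested on dim levels. Genes on either side of them were flat, with log2 differences of 0.18 for Serpinb9d and 0.00 for Serpinb6d. Serpinb9, the granzyme B inhibitor that gives the group its name, had the same log2 level of 9.38 in iAs and MEFs. Of the 15 genes measured in the chromosome 13 cluster 5 were higher, and of the 10 on chromosome 1, 3 were higher. There, Serpinb2, plasminogen activator inhibitor 2, was at least 23-fold higher, at log2 levels of 11.06 for iAs, 6.22 for MEFs and 5.41 for pAs, and its neighbour Serpinb7 had a log2 difference of 1.01 with both levels below the array medians. The Serpinb9 genes are close copies of each other, and probes of one may bind transcripts of another, so the share of each in the signal was not separated.

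Families silent in most tissues held a few such gains. Of 1396 olfactory and vomeronasal receptor genes, 1319 lay below the median on all 3 arrays, 34 were called higher in iAs (2.44%, against 8.84% of all named genes) and 5 lower (0.358%). Of the 34, 7 reached the median of the iA array. Vmn1r181 had log2 levels of 8.66 for iAs, 4.39 for MEFs and 3.94 for pAs, Olfr810 8.24 for iAs, 4.79 for MEFs and 5.10 for pAs and Vmn2r79 9.80 for iAs, 6.63 for MEFs and 6.37 for pAs. These 3 were named after their values were seen, and all lay within 1.5-fold of MEFs in pAs. H2-M1 and H2-M9, MHC class I genes known from vomeronasal neurons, were at least 7.48-fold higher and at least 10.9-fold higher, at log2 levels of 9.44 for iAs, 4.31 for MEFs and 4.01 for pAs and 9.98 for iAs, 5.36 for MEFs and 5.12 for pAs.

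The matrix that fibroblasts secrete was reduced in large part and not throughout. Small leucine-rich proteoglycans, which coat and space collagen fibrils, were lower for 10 of 15 members (66.7%, median log2 difference -1.59) and higher for 1, against 5 lower and 3 higher in pAs. Dcn, decorin, had log2 levels of 7.98 for iAs, 12.96 for MEFs and 9.91 for pAs, 31.6-fold below MEFs in iAs and 8.24-fold below them in pAs. Aspn, asporin, was at least 35.1-fold lower and Lum, lumican, at least 21.3-fold lower. Ogn, osteoglycin, and Fmod, fibromodulin, lay below both other arrays, at log2 levels of 7.86 for iAs, 12.08 for MEFs and 12.45 for pAs and 6.84 for iAs, 10.28 for MEFs and 10.62 for pAs. Of 23 matricellular and adhesive glycoproteins 17 were lower (73.9%, median -1.36) and in pAs 14, including Tgfbi, a secreted protein named for its induction by TGFβ, 23.1-fold lower, and Thbs4, thrombospondin 4, at least 16.9-fold lower. The 2 exceptions are known from neural tissue. Spon1, F-spondin, was 16.4-fold higher, at log2 levels of 11.78 for iAs, 7.74 for MEFs and 10.75 for pAs, and Tnr, tenascin-R of brain matrix, at least 13.1-fold higher. Elastic fibre genes were lower for 9 of 16, among them Mfap4 (22.9-fold lower) and Fbn2, fibrillin 2 (12.8-fold lower), and higher for 4 (in pAs, 14 lower and 1 higher), among them Efemp1, fibulin 3, at log2 levels of 12.77 for iAs, 11.62 for MEFs and 10.58 for pAs.

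Collagen genes went both ways, also within a class. Of 37 measured 8 were higher in iAs (21.6%) and 11 lower (29.7%), with a median log2 difference of 0.00, and in pAs 0 were higher and 19 lower (51.4%), with a median of -0.61. All 8 of the gained collagens lay above both other arrays. The fibrillar Col1a2 and Col3a1 were 11.5-fold lower and 6.47-fold lower, and Col6a3, of the beaded filaments, was 10.2-fold lower, each also lower in pAs. Col14a1, which binds to the surface of fibrils, was 11-fold above MEFs in iAs and at least 4.94-fold below them in pAs, at log2 levels of 12.34 for iAs, 8.87 for MEFs and 6.05 for pAs, while Col12a1 of the same class was 9.3-fold lower in iAs. Col28a1, a beaded collagen of peripheral nerve, stood at log2 levels of 9.13 for iAs, 6.60 for MEFs and 5.48 for pAs, 5.79-fold higher. Col18a1 and Col15a1, which join basement membranes to the matrix, were 4.54-fold higher and 4.4-fold higher. Enzymes that modify collagen were lower for 10 of 23 in iAs and 16 in pAs, such as the lysyl oxidase gene Loxl1 (6.4-fold lower) and the prolyl hydroxylase gene P4ha3 (6.77-fold lower), with P3h2 the exception, 6.18-fold higher. In the basement membrane 5 of 20 genes were higher and 2 lower in iAs, against 5 and 9 in pAs. Agrn, agrin, was 4.68-fold higher, and Nid1, nidogen 1, had log2 levels of 13.01 for iAs, 12.22 for MEFs and 8.19 for pAs, 1.72-fold above MEFs in iAs and 16.4-fold below them in pAs. Matrix proteases and their inhibitors were lower for 9 of 33 in iAs and 20 in pAs. Of 26 integrin genes, which encode matrix receptors, 7 were higher and 8 lower in iAs, against 5 and 9 in pAs. Itga4 and Itga6, which bind fibronectin and laminin, were 10.1-fold higher and 6.43-fold higher, and Itga11, the collagen receptor of fibroblasts, was 16.5-fold lower, at log2 levels of 7.14 for iAs, 11.18 for MEFs and 7.14 for pAs.

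**Figure D3:**
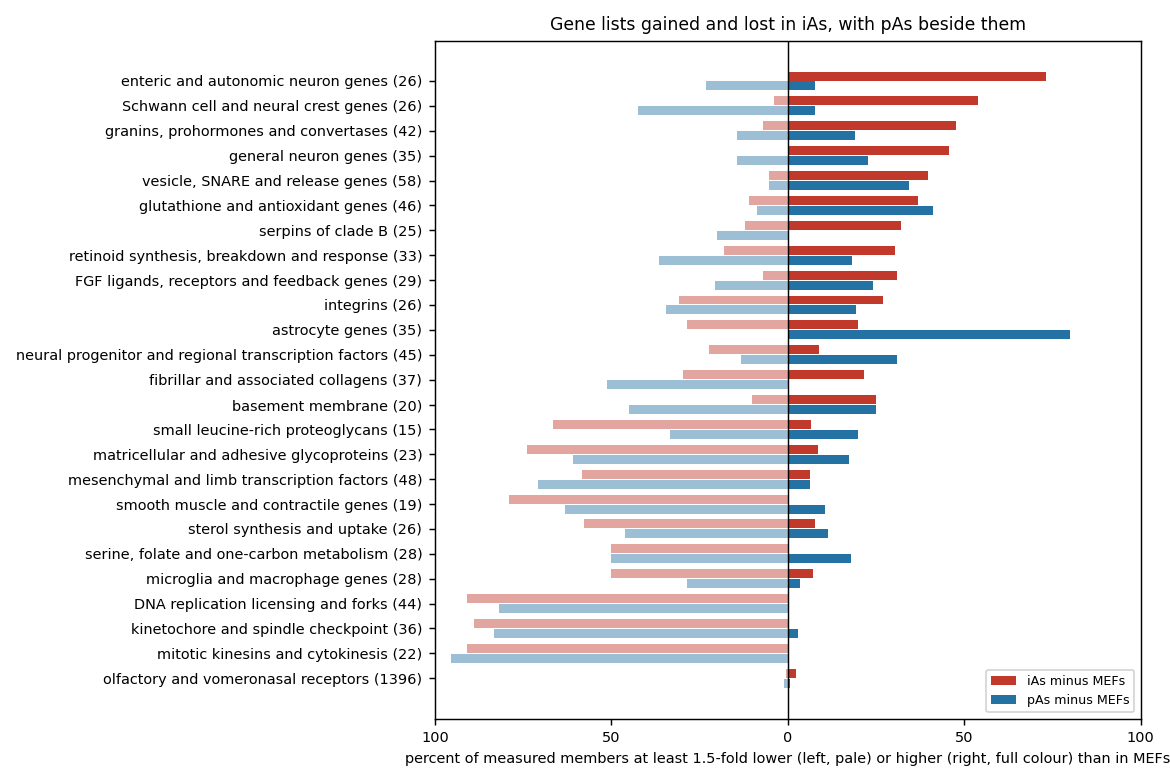
Share of the measured members of 25 of the gene lists, their number in brackets, that were at least 1.5-fold higher (full colour, right) or lower (pale, left) in iAs (red) and pAs (blue) than in MEFs, on 1 array each. Enteric genes were higher for 73.1% of members in iAs and 7.69% in pAs, and genes of mitosis and replication were lower in both.

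Cell-cell adhesion and guidance genes changed in both directions. Of 24 classical cadherins and their partners 6 were higher and 4 lower in iAs, against 8 and 6 in pAs. Ajap1, which sits at adherens junctions, was at least 41-fold above MEFs in iAs and at least 4.65-fold above them in pAs, while Cdh11, the cadherin of mesenchyme, had log2 levels of 9.96 for iAs, 13.10 for MEFs and 10.64 for pAs, 8.85-fold lower in iAs, and Cdh3 was 10-fold lower. Beta protocadherins, cell-surface recognition molecules encoded in 1 cluster, were higher for 7 of 22 in iAs and 6 in pAs, with 0 and 0 lower. Pcdhb16 was 3.52-fold above MEFs in iAs and 1.74-fold above them in pAs. These genes are also close copies. Of 69 axon guidance genes 17 were higher and 16 lower in iAs, against 17 and 20 in pAs. Plxnb3, a semaphorin receptor, was 9.12-fold higher, and Sema7a, a membrane-bound semaphorin, 5.5-fold higher. Ntn4, netrin 4, was 11.2-fold above MEFs in iAs and 18.4-fold above them in pAs. Epha3, an ephrin receptor of mesenchyme and growing axons, was at least 16.6-fold below MEFs in iAs and 15.4-fold below them in pAs.

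Transcription factors of mesenchyme and limb were lower for 28 of 48 members in iAs (58.3%, median log2 difference -0.74) and for 34 in pAs (70.8%, median -1.28). Tbx15 had log2 levels of 7.19 for iAs, 11.34 for MEFs and 7.30 for pAs, 17.7-fold lower in iAs, and Twist2 and Osr2 were 7.21-fold lower and 9.53-fold lower. The 3 exceptions were factors with a role in crest derivatives or the heart. Hand2, needed for autonomic and enteric neurons as well as for the limb, was 7.34-fold above MEFs in iAs and 2.98-fold below them in pAs, at log2 levels of 11.29 for iAs, 8.42 for MEFs and 6.85 for pAs. Tbx3 was 3.27-fold higher, and Tbx20 at least 1.62-fold higher. Smooth muscle genes were lower for 15 of 19 (78.9%, median -1.18) with 0 higher, against 12 lower and 2 higher in pAs, and 7 lay below both other arrays. Cnn1, the actin-binding calponin 1, was 17-fold below MEFs in iAs and 1.54-fold above them in pAs, at log2 levels of 7.23 for iAs, 11.32 for MEFs and 11.93 for pAs. Acta2 and Tagln, the smooth muscle actin and transgelin of contractile fibroblasts, were 4.77-fold lower and 8.7-fold lower. Skeletal and cardiac muscle genes were lower for 11 of 26 in iAs and 12 in pAs, led by Actc1 (at least 7.89-fold lower) and Acta1 (7.8-fold lower). Of 26 genes of tendon, cartilage and bone 6 were higher and 7 lower in iAs, against 4 and 8 in pAs. Tnmd, tenomodulin of tendon, was at least 14.7-fold lower, and Matn2, matrilin 2 of peripheral nerve and other connective tissue, 7.4-fold higher.

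Hox genes record position along the body axis. In cluster A 6 of 9 were lower in iAs (median log2 difference -0.88) and in cluster C 7 of 9 (median -0.95), while in cluster B 1 of 10 was higher, 0 lower and the median 0.09. In pAs, 8, 8, 9 and 6 genes of clusters A to D were lower. Hoxb9 had log2 levels of 10.99 for iAs, 9.65 for MEFs and 6.87 for pAs, 2.53-fold above MEFs in iAs and 6.86-fold below them in pAs. Hoxc6 and Hoxc8 were at least 5.65-fold lower and at least 5.35-fold lower in iAs. In cluster D 1 gene was higher and 3 lower of 8: Hoxd3 was 2.1-fold higher, and Hoxd13, a factor of the digits, was 3.88-fold lower, at log2 levels of 7.75 for iAs, 9.70 for MEFs and 5.36 for pAs. Of 45 transcription factors and markers of neural progenitors and brain regions 4 were higher in iAs and 10 lower, against 14 and 6 in pAs. Sox2 had log2 levels of 10.09 for iAs, 7.13 for MEFs and 12.21 for pAs, 7.78-fold above MEFs in iAs and 33.8-fold above them in pAs. Dlx2, of the forebrain and the cranial crest, was 3.98-fold higher. Emx2 and Zic1, factors of the dorsal forebrain and dorsal neural tube, were at least 4.05-fold lower and 4.11-fold lower in iAs, with log2 differences of 0.79 and 0.19 in pAs.

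**Figure D4:**
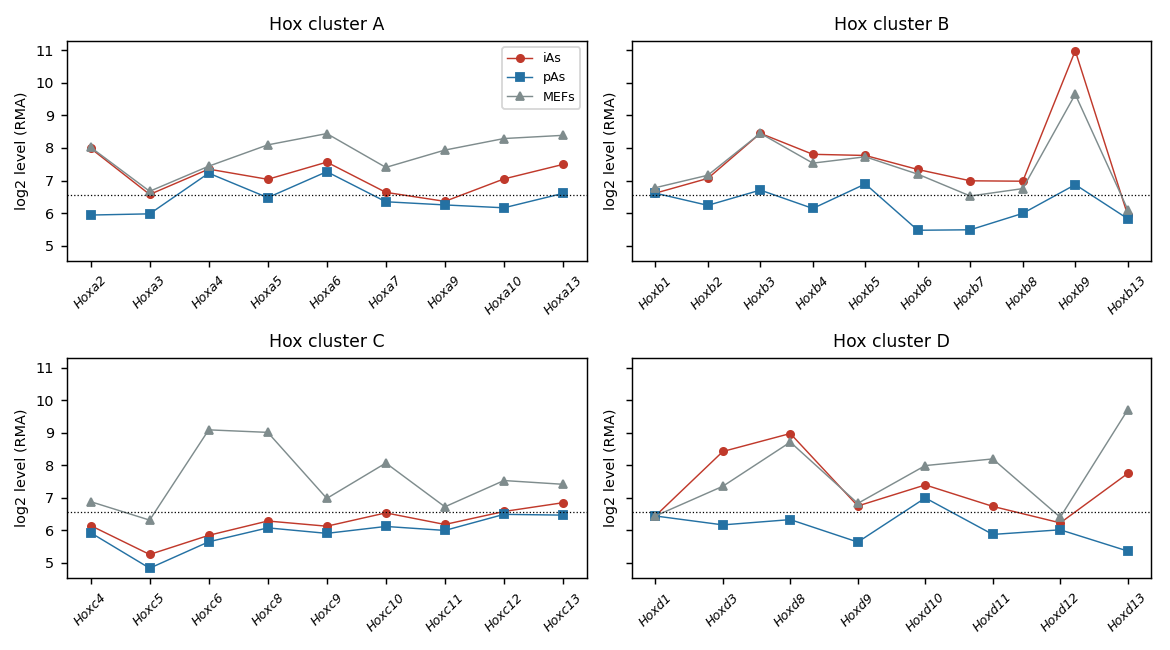
Log2 levels of every measured Hox gene on each array, by cluster and in order of paralogue number; the dotted line is the mean of the array medians. In cluster B 8 of 10 genes fell below MEFs in pAs and 0 did so in iAs, with Hoxb9 at 10.99 in iAs, 9.65 in MEFs and 6.87 in pAs, while Hoxc6 in cluster C stood at 5.84 in iAs, 9.09 in MEFs and 5.64 in pAs.

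Signalling genes were read by pathway, beginning with the targets of the compounds. The TGFβ receptor gene Tgfbr1 had a log2 difference of -0.79 in iAs, Kdm1a, which encodes LSD1, -0.58, Gsk3b 0.07, and the deacetylase genes Hdac1, Hdac2 and Hdac3 -0.36, -0.69 and -0.19. Of 37 TGFβ ligands, receptors and responders 14 were lower (37.8%) and 4 higher in iAs, against 11 and 6 in pAs. Tgfb3 and Ltbp2, a ligand and a binding protein of the latent complex, were 3.95-fold lower and 4.94-fold lower, below both other arrays. Tgfb2, another ligand, was 3.54-fold higher, and Eng, a co-receptor of endothelium and crest-derived cells, was 7.24-fold above MEFs in iAs and 4.03-fold below them in pAs, at log2 levels of 12.74 for iAs, 9.88 for MEFs and 7.87 for pAs. Wnt genes were lower for 18 of 53 and higher for 9 in iAs, against 18 and 9 in pAs, in part different genes. Fzd8, a Wnt receptor, was 4.46-fold higher, Nkd2, an inhibitor induced by the pathway, 3.85-fold above MEFs in iAs and 8.68-fold below them in pAs, and Lgr5, a receptor for R-spondin, at least 5.23-fold lower. Axin2, a common readout of Wnt signalling, lay within 1.5-fold at log2 levels of 7.83 for iAs, 7.59 for MEFs and 7.97 for pAs.

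BMP genes were higher for 8 and lower for 8 of 31 in iAs, and 11 and 10 in pAs. Bmp4 was 4.25-fold lower, at log2 levels of 9.15 for iAs, 11.24 for MEFs and 10.02 for pAs, while the BMP target Id1 was 1.99-fold above MEFs in iAs and 2.38-fold above them in pAs. Of 27 Notch genes 4 were higher and 1 lower in iAs, against 8 and 4 in pAs; Hey2, a target, was 2.56-fold higher, and Dlk1, a non-canonical ligand, 6.59-fold lower. FGF genes were higher for 9 of 29 (31%) and lower for 2 in iAs, and higher for 7 and lower for 6 in pAs. Feedback genes that FGF signalling induces were among those gained: Spry4 was 4.85-fold higher and Dusp4 2.55-fold higher. Fgfr2 stood apart, at log2 levels of 5.73 for iAs, 9.95 for MEFs and 11.70 for pAs. In the IGF axis 10 of 19 were lower (52.6%, median log2 difference -0.60), and in pAs 9 (median -0.45). Igf2, the fetal growth factor, had log2 levels of 6.97 for iAs, 12.21 for MEFs and 7.39 for pAs, 37.9-fold below MEFs in iAs and 28.3-fold below them in pAs. Igfbp5 was 9.73-fold below MEFs in iAs and 4.46-fold above them in pAs. Among 41 histone modifiers and DNA methylation genes 3 were higher (7.32%) and 5 lower (12.2%) in iAs, near the 8.84% and 10.0% of all named genes. In pAs 3 were higher and 8 lower. Ezh2, a histone methylase, and Uhrf1, a partner of the maintenance DNA methylase, were 3.27-fold lower and 6.67-fold lower in iAs. Ezh1 was 2.0-fold higher.

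Most genes on the cell division lists were lower than in MEFs for iAs and pAs alike. Of 36 kinetochore and spindle checkpoint genes 32 were lower in iAs (88.9%, median log2 difference -2.04) and 30 in pAs (median -2.10), of 22 mitotic kinesins and cytokinesis genes 20 (median -2.58) and 21, and of 44 DNA replication genes 40 (90.9%, median -1.42) and 36 (median -1.31). Plk1, a kinase that drives mitosis, had log2 levels of 7.58 for iAs, 11.40 for MEFs and 6.91 for pAs, 14.1-fold lower in iAs. Kif11, the motor that separates spindle poles, was 13.1-fold lower and the helicase subunit gene Mcm5 10.7-fold lower. Cyclins and their kinases were lower for 16 of 32 in iAs and 18 in pAs. Ccna2 and Ccnb2, the cyclins of S phase and mitosis, were 13.2-fold lower and 11.9-fold lower, and Ccnd1, the cyclin that growth factors induce, was the reverse, at log2 levels of 13.16 for iAs, 11.80 for MEFs and 11.83 for pAs, 2.56-fold higher in iAs. Histone genes, many of them made in S phase, went both ways, since 7 of 20 measured histone genes were lower and 4 higher (in pAs, 7 and 3); H2bc12 was at least 23.8-fold lower. Among CDK inhibitors and p53 targets 5 were higher and 5 lower of 24 in iAs, and 6 and 5 in pAs. Cdkn2a was 2.16-fold higher, Mdm2 2.02-fold higher and Lmnb1, a lamin lost in senescent cells, at least 6.91-fold lower. The CDK inhibitor genes Cdkn1c and Cdkn2c were also lower in iAs, with log2 differences of -1.79 and -0.84, as was Gadd45g, with -2.40. Whether the cells were senescent was not tested. Ribosome genes were lower by less, 17 of 35 ribosomal protein genes (median -0.44) and 9 of 30 for ribosome biogenesis (median -0.41), and in pAs 18 and 14.

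Promoters of the mitotic genes share short motifs, and these are shown because the lists were lower almost as a whole. RefSeq promoters of GRCm38.p6, running from 250 bases before the start of each gene to 50 after it, were searched on both strands for TTTGAA, a form of the CHR element of G2 and M phase genes, for CCAAT, the box bound by NF-Y, and for TTTGGCGC and TTTCCCGC, forms of the E2F site. The first promoter of each of 27025 genes was used. TTTGAA occurred in 18.1% of all promoters, in 16 of 32 of the kinetochore list (50%) and in 16 of 20 of the mitotic kinesin list (80.0%), and in 5 of 35 of the replication list (14.3%). It occurred in 16.5% of the promoters of all genes lower in iAs. CCAAT occurred in 37.9% of all, in 23 of 32 (71.9%), 12 of 20 (60.0%) and 22 of 35 (62.9%) of the same lists, and in 14 of 18 histone gene promoters (77.8%). TTTGGCGC was found in 0.537% of all and 6 of 35 replication promoters (17.1%), and TTTCCCGC in 1.11% of all and again 6 of 35. A match describes letters in a window and not a bound site. In the promoters of Plk1, at chr7:122159185-122159484 on the plus strand, and of Ccnb2, at chr9:70421505-70421804 on the minus strand, capitals mark TTTGAA and CCAAT, read 5′ to 3′ along the gene's strand.
Plk1: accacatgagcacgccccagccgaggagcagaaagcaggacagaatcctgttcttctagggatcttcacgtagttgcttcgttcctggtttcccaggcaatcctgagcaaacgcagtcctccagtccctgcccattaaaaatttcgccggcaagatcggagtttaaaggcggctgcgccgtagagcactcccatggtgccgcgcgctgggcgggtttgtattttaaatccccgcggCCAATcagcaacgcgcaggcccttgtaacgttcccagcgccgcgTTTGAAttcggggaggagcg
Ccnb2: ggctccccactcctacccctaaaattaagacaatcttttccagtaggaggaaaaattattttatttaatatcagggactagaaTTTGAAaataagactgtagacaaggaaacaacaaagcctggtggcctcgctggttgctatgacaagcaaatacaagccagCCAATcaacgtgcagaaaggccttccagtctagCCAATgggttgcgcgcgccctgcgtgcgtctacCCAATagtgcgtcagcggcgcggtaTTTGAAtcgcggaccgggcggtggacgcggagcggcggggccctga
Plk1 had 1 TTTGAA, from base 30 to 35 after its start, and 1 CCAAT, 14 to 10 bases before it. Ccnb2 had 2 TTTGAA, of which 1 began at base 4 after the start, and 3 CCAAT, beginning 87, 54 and 21 bases before it.

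Metabolic genes moved in separate directions. Retinoid genes were higher for 10 of 33 (30.3%) and lower for 6 in iAs, with 7 above both other arrays, and higher for 6 and lower for 12 in pAs. The enzymes that make retinoic acid went both ways: Aldh1a1 was 37.2-fold higher, at log2 levels of 13.39 for iAs, 8.18 for MEFs and 11.29 for pAs, Aldh1a3 5.18-fold higher, and Aldh1a2 at least 3.27-fold lower. Adh7 and Dhrs3, which interconvert retinol and retinal, were 7.49-fold higher and 4.64-fold higher, and Crabp1, which binds retinoic acid in the cytosol, was 5.4-fold below MEFs in iAs and 30.5-fold below them in pAs. Antioxidant genes were higher for 17 of 46 (37%) in iAs and 19 (41.3%) in pAs, among them Nqo1, a quinone reductase induced by NRF2, 5.94-fold higher in iAs, and Sod3, the secreted superoxide dismutase, 6.1-fold higher. Sterol synthesis and uptake genes were lower for 15 of 26 (57.7%, median log2 difference -0.64) in iAs and 12 in pAs, Cyp51 by a fold of 3.76 in iAs, while the exporter gene Abca1 was 2.48-fold above MEFs in iAs and 6.6-fold above them in pAs.

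Serine, folate and one-carbon genes were lower for 14 of 28 (50%, median log2 difference -0.61) in iAs and for 14 in pAs, and higher for 0 and 5. Mthfd2, the mitochondrial folate enzyme of dividing cells, was 6.07-fold lower, and Psat1, of serine synthesis, 4.67-fold lower. In glycolysis 10 of 35 were lower and 3 higher in iAs, while in pAs 5 were lower and 10 higher; Slc16a3, the lactate exporter, was 8.24-fold lower, and Pdk4, a kinase that shuts pyruvate out of the citrate cycle, 14.8-fold above MEFs in iAs and 7.64-fold above them in pAs. Respiratory chain genes were lower for 5 of 52 (9.62%, near the 10.0% of all named genes) and higher for 0 in iAs, against 0 and 1 in pAs. Of 32 apolipoproteins and lipid carriers 7 were higher and 4 lower in iAs, against 10 and 5 in pAs: Apod, which Schwann cells and astrocytes secrete, was 10.1-fold higher, at log2 levels of 12.18 for iAs, 8.85 for MEFs and 9.90 for pAs, and Apoe 2.91-fold above MEFs in iAs and 7.68-fold above them in pAs. Of 30 genes of fat cells and lipid storage 6 were higher and 7 lower in iAs, against 6 and 10 in pAs; Plin2, a lipid droplet coat protein, was 2.72-fold higher, and Cd36 and Lpl, of fatty acid uptake, were at least 3.44-fold lower and 3.0-fold lower. Of the 4 adipocyte markers, Pparg, the nuclear receptor of fat cell differentiation, was 2.21-fold higher, at log2 levels of 10.11 for iAs, 8.97 for MEFs and 7.24 for pAs, Fabp4 and Plin1 were lower, with log2 differences of -1.26 and -0.62, and Adipoq, adiponectin, had a log2 difference of -0.38. Lysosomal genes were higher for 8 and lower for 3 of 42 in iAs, and 7 and 7 in pAs.

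Immune genes went both ways, and macrophage genes were lower more often than higher. Of 28 microglia and macrophage genes 14 were lower in iAs (50%, median log2 difference -0.56) and 2 higher, against 8 and 1 in pAs, and 9 lay below both other arrays. Tyrobp and Fcer1g, adaptors of macrophage receptors, had log2 levels of 6.39 for iAs, 9.08 for MEFs and 8.88 for pAs and 6.78 for iAs, 10.04 for MEFs and 9.47 for pAs, and Ctss, a macrophage cathepsin, was at least 10.1-fold lower. Ccl3 and Ccl9, chemokines of macrophages, were at least 11.9-fold lower and 9.08-fold lower. Of 5 defining markers, Aif1, Cx3cr1 and C1qa lay within 1.5-fold. Aif1 was below the median of each array, and Cx3cr1 had the same level on all 3. The other 2 were lower in iAs. Csf1r had log2 levels of 7.51 for iAs, 8.60 for MEFs and 7.89 for pAs, and Ptprc 5.64 for iAs, 6.58 for MEFs and 6.14 for pAs. The sort was applied to the iAs alone, and its part in these differences was not tested. Of 51 chemokines and cytokines 14 were lower and 8 higher in iAs, and 22 and 6 in pAs. Those higher included the neutrophil attractants Cxcl2, 7.77-fold above MEFs in iAs and 1.9-fold below them in pAs, and Cxcl5, 5.35-fold higher, at log2 levels of 12.81 for iAs, 10.39 for MEFs and 8.17 for pAs. Complement and acute-phase genes were higher for 9 of 31 and lower for 4 in iAs, and 10 and 7 in pAs; C4b was 10.7-fold above MEFs in iAs and 5.02-fold above them in pAs, and Lcn2, lipocalin 2, a gene of reactive astrocytes, 6.68-fold higher and 27.8-fold higher. Interferon-stimulated genes were higher for 10 of 49 and lower for 1 in iAs, and 13 and 3 in pAs, with Tlr3, the sensor of double-stranded RNA, 12.2-fold above MEFs in iAs and 10.3-fold above them in pAs. MHC class I and antigen processing genes were higher for 5 of 24 and lower for 0 in iAs, and 3 and 2 in pAs, and H2-K1 was 1.84-fold higher in iAs.

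Markers of other lineages that an altered fibroblast might take on mostly stayed low. Olig1 and Olig2, factors of the oligodendrocyte lineage, differed from MEFs by -0.51 and -0.35 on the log2 scale in iAs, and by 3.58 and 3.53 in pAs, and the myelin genes Mog and Mag -0.23 and 0.00 in iAs. Of 21 oligodendrocyte genes 4 were higher in iAs and 3 in pAs, among them Sox10 and Mal, which Schwann cells share, and Cnp, 4.96-fold above MEFs in iAs and 5.15-fold above them in pAs. The pluripotency genes Pou5f1 and Nanog had the same level in iAs and MEFs, 6.53 for each of them. The germ cell genes Dazl and Ddx4 and the trophoblast genes Tpbpa and Plac1 lay below the medians of all 3 arrays. Of 46 germline and preimplantation genes 1 was higher (Sox2) and 1 lower (Klf4), and of 36 trophoblast genes 2 were higher and 3 lower in iAs, against 2 and 4 in pAs. Pecam1, of endothelium, had log2 levels of 6.85 for iAs, 6.79 for MEFs and 6.73 for pAs, while Kdr, the VEGF receptor, was 2.45-fold higher. Epithelial genes were lower for 9 of 39 and higher for 2 in iAs, and 10 and 3 in pAs, with Cdh1 within 1.5-fold at log2 levels of 6.93 for iAs, 6.78 for MEFs and 6.46 for pAs.

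Imprinted and oncofetal genes were lower for 11 of 27 measured in iAs (40.7%, median log2 difference -0.29) and higher for 1, and in pAs for 11 and 1. The amino acid transporter gene Slc38a4 was at least 33.8-fold below MEFs in iAs and at least 34.3-fold below them in pAs, and Peg3, a zinc finger gene expressed from the paternal copy, 6.38-fold lower and 6.3-fold lower. The imprinted region from Dlk1 to Dio3 on chromosome 12 stood out for its small RNAs, a set picked after its values were seen and therefore given as a description. Genes in it are transcribed from 1 parental copy, the maternal one for the long RNAs Meg3 and Rian. Of 483 measured genes with a miRNA symbol, 42 were higher in iAs (8.70%) and 34 lower (7.04%). They included a few long host RNAs outside the region, such as Mir100hg, called higher, and Mir99ahg, called lower. Between Dlk1 and Dio3, 23 of 43 were lower (53.5%) and 0 higher, and elsewhere 11 of 440 were lower (2.50%) and 42 higher (9.55%). In pAs, 25 of the 43 were lower and 0 higher. Of the 43, 22 reached the median of the MEF array, so many of the differences were read from dim probe sets. These probe sets read the gene that holds the hairpin, not the mature miRNA.

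**Figure D5:**
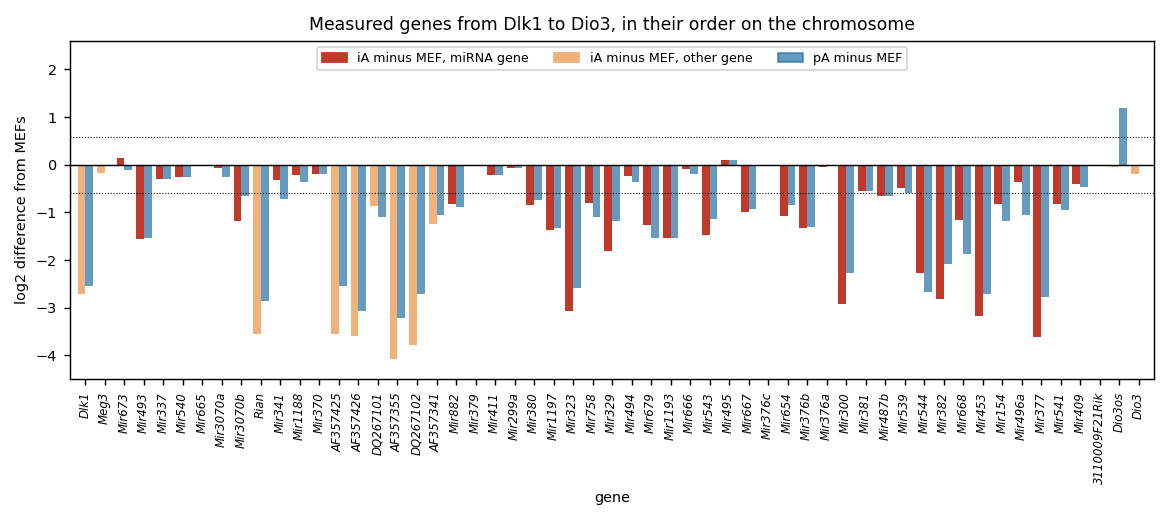
Log2 difference from MEFs of every measured gene from Dlk1 to Dio3, in chromosome order, for iAs (red for miRNA genes, orange for others) and pAs (blue). Bars pointing down are levels below MEFs and dotted lines mark 1.5-fold; 23 of 43 miRNA genes passed the lower line in iAs and none passed the upper, and Meg3 and Dio3 lay near 0.

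The long RNAs Rian and Meg3 did not move alike, and which long RNA holds each miRNA gene was not tested. Next after Rian in chromosome order, Mir341, Mir1188 and Mir370 lay within 1.5-fold of MEFs in iAs. Their log2 differences were -0.31, -0.23 and -0.19. Rian, which holds the snoRNA genes, had log2 levels of 7.15 for iAs, 10.69 for MEFs and 7.83 for pAs, 11.6-fold lower in iAs, and its snoRNA genes AF357425 and AF357355 had log2 differences of -3.55 and -4.08. Meg3 lay within 1.5-fold at log2 levels of 6.51 for iAs, 6.68 for MEFs and 6.68 for pAs, near the array medians. Dlk1, at the other end and expressed from the paternal copy, was 6.59-fold below MEFs in iAs and 5.87-fold below them in pAs, and Dio3, a deiodinase that inactivates thyroid hormone, had a log2 difference of -0.19. Mir377 had log2 levels of 4.36 for iAs, 7.98 for MEFs and 5.21 for pAs, Mir453 6.62 for iAs, 9.79 for MEFs and 7.07 for pAs, Mir323 4.41 for iAs, 7.48 for MEFs and 4.89 for pAs, Mir382 5.37 for iAs, 8.19 for MEFs and 6.11 for pAs and Mir329 6.77 for iAs, 8.58 for MEFs and 7.39 for pAs. In the opposite direction, and outside the region, the let-7b gene Mirlet7b stood at log2 levels of 6.93 for iAs, 4.27 for MEFs and 6.77 for pAs. Mir125b-1 stood at 6.76 for iAs, 3.63 for MEFs and 6.43 for pAs, and both genes were called higher in iAs and pAs alike. Counted from the array medians, they were at least 1.32-fold higher and at least 1.17-fold higher in iAs, so both rested on dim levels. The pA level of Mir125b-1 lay below its array's median. The mature sequences that these hairpins give, from RefSeq on GRCm38.p6, are written with the seed, bases 2 to 8, in capitals; those lower in iAs come first.
miR-377-3p: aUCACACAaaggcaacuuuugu
miR-453: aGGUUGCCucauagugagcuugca
miR-323-3p: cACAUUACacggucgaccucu
miR-382-5p: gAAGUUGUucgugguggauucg
miR-329-3p: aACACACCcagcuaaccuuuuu
miR-1197-5p: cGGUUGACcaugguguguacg
miR-758-5p: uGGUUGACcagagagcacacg
let-7b-5p: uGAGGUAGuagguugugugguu
miR-125b-5p: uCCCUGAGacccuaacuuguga
The mature miR-377-3p lies at chr12:109740553-109740574, miR-453 at chr12:109735669-109735692 and miR-329-3p at chr12:109713541-109713562, all on the plus strand. Those of let-7b-5p and miR-125b-5p lie at chr15:85707325-85707346 and chr9:41581940-41581961, also on the plus strand. Among the lower miRNA genes between Dlk1 and Dio3 with a RefSeq sequence, 1 seed was shared, GGUUGAC, by miR-1197-5p and miR-758-5p. Their genes Mir1197 and Mir758 had log2 differences of -1.37 and -0.80 in iAs. Mir1197 was dim, below the median of each array, at log2 levels of 3.17 for iAs, 4.54 for MEFs and 3.20 for pAs. Mir758 stood at 6.63 for iAs, 7.43 for MEFs and 6.33 for pAs. The other sequences shown have seeds of their own.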

How the data were processed

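The authors deposited log2 expression levels per probe set of Affymetrix Mouse Gene 2.0 ST arrays, made by RMA in Partek, with no version given in the sources used here, and the labels' processing notes also name MAS5. RMA corrects background, makes the arrays' distributions alike and summarises probes, so levels are relative and global shifts are removed. No intensities were used.

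Probe sets with exactly 1 gene symbol in the platform annotation were averaged per gene with Python 3.11.15, numpy 2.4.6 and pandas 2.3.3, and iA minus MEF and pA minus MEF differences were called at 1.5-fold. With 1 array per cell type there is no test and the number of arrays limits the precision. The genes and the 71 lists, from textbook knowledge and the study, were chosen with earlier results of these data known. Named are the 25 highest and 25 lowest genes against MEFs, the 15 highest and 15 lowest against both other arrays, up to 4 members of each list in each direction, series markers, sex-linked genes, compound targets, cell type markers and members that stayed within 1.5-fold. In the first 3 of these, placeholder symbols were left out and the higher level had to reach the median of its array. For the 15 lowest against both other arrays, the lower of the MEF and pA levels had to reach its array's median. Ret, Nos1, Erbb3, Foxd3, Ngfr and Slc5a7, also named, were chosen after their values were seen. Gene order, promoters and miRNAs came from RefSeq (GRCm38.p6). The computation was tested on simulated data. Alternatives were other fold thresholds, quantile normalization, centring, an offset of 32, a filter on dim genes, the brightest probe set and all probe sets. A comparison of serpin proteins was not run, some list members were not analysed here, and PCR and staining data were not used here.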

Additional observations from a re-analysis of the deposited data

Results flagged for a closer look

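Probe sets outside the named genes also differed. Of 17824 probe sets with several gene symbols or none, which enter the comparisons above only in the count over all probe sets, 2496 passed 1.5-fold on the upper side of MEFs in iAs (14%) and 1014 on the lower side (5.69%), a signal in data outside the named genes. With the higher level required to reach its array's median, 1224 were higher and 716 lower. There is no control array for this set, and which transcripts these probe sets read was not tested.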

How the results depend on the processing

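Counts of genes followed the fold threshold. At 2-fold, 1066 genes lay above and 1119 below MEFs in iAs, and 537 lay above and 261 below both other arrays. At 3-fold the counts were 535, 525, 282 and 96. Over all probe sets, 4587 were higher (11.1%) and 3397 lower (8.22%). The 4 counts and 71 list medians kept within the set limits under quantile normalization, centring, an offset of 32, the brightest probe set of each gene and levels below an array's median raised to it, an alternative chosen after seeing the data. With dim genes left out, by construction over fewer genes, 10 list medians moved further from 0: the small leucine-rich proteoglycans to -3.06, tendon, cartilage and bone genes to 0.62, imprinted genes to -1.55, histone genes to -1.80, Schwann cell and neural crest genes to 2.53, enteric and autonomic neuron genes to 3.48, granins and prohormones to 1.54, sodium and calcium channels to 0.99, germline genes to 0.97 over 2 genes, and microglia and macrophage genes to -1.21. Of 427 named genes with alternatives, 422 were called. The call changed for 5 of the 427 under quantile normalization, 1 under centring, 10 under the offset and 11 with levels raised to the median. In that last setting 1 further gene, the sodium channel gene Scn2a, turned from lower to 0.0129. No paired analysis was possible because each cell type has 1 array, and no replicate could be left out for the same reason. The serpin protein comparison was not run. Signal over background is unknown, since the values carry no detection calls, and the spread between cultures cannot be estimated.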
